A study of Drosophila melanogaster with 12 samples.

Results

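Genes for endosome and lysosome tethering and sorting were followed in sorted Drosophila neurons, with the question of whether the low Vps11 level of mutant neurons extends to its partners in HOPS and CORVET, to retromer and to ESCRT. They were all genes with a Vps or Snx symbol followed by a number, together with dor, car and lt, for which the array annotation gave a probe set with a single gene symbol. This made 37 of the 11982 genes with such a probe set. Each gene was read from its probe set with the highest mean over the 12 arrays. Of the 37 genes, 29 were at or above the array's median level on 3 arrays or more and were tested. The other 8, Vps8, Vps25, Vps33B, Vps35, Vps36, Vps51, Vps52 and Snx16, did not, and are given as values without a test.

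Cells deliver membrane proteins to the lysosome through endosomes, and these genes encode the machines that do the sorting. HOPS tethers late endosomes and autophagosomes to lysosomes. In yeast, HOPS and the early endosomal tether CORVET are built on a shared core that includes Vps11. CORVET genes were grouped here by that yeast composition, and whether fly Vps11 acts in CORVET was not tested. Retromer, with sorting nexins, retrieves cargo from endosomes, and the ESCRT complexes sort ubiquitinated cargo into vesicles inside the endosome. In human families, mutations in VPS35 cause inherited Parkinson's disease, as do mutations in the parkin gene, whose product is a ubiquitin ligase that marks damaged mitochondria for lysosomal clearance.

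The samples were 12 pools of 115 GFP-labelled neurons, sorted from at least 15 dissociated adult brains each and read on 1 Affymetrix Drosophila 2.0 array per pool. There were 3 pools each of cholinergic mutant, cholinergic control, dopaminergic mutant and dopaminergic control neurons. The study's design text names parkin null animals, and the alleles, the drivers of GFP, the control genotype and the age in days are not given in the sources used here. Nothing in the labels ties pools to separate fly cultures, so a p-value measures the spread between these pools, which may be technical. In pooled cells, a smaller share of cells that express a gene and less RNA per cell cannot be told apart. All levels are log2 intensities as deposited, differences are differences of group means on that scale, and a call is a limma p adjusted over all 12460 tested probe sets that is under 0.05. Replicates are numbered 1 to 3 within each group only to name them.

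Array medians lay between 5.59 and 6.30. The third dopaminergic mutant array stood apart, with correlations of 0.263 to 0.532 with the other arrays over all probe sets. The dopaminergic differences of tested genes described by their values on every dopaminergic array are therefore also given without it, except for Snx3 and Vps2. The neuronal markers elav, nSyb and brp had a mean level of 11.04 to 11.55 in cholinergic mutants, 10.08 to 11.24 in cholinergic controls, 7.41 to 11.21 in dopaminergic mutants and 10.42 to 11.35 in dopaminergic controls. The mean level of 5 dopaminergic markers was 5.67 to 11.22 in dopaminergic mutants and 10.75 to 11.47 in dopaminergic controls, against 5.92 to 7.65 in cholinergic mutants and 6.22 to 7.45 in cholinergic controls. The markers differed: ple, the tyrosine hydroxylase gene, averaged 7.44 and 10.50 in dopaminergic mutants and controls and 3.74 and 3.85 in cholinergic mutants and controls, while Ddc, the dopa decarboxylase gene, averaged 9.63 and 11.48 in dopaminergic mutants and controls and 10.49 and 9.37 in cholinergic mutants and controls. The mean level of 3 cholinergic markers was 10.46 to 10.92 in cholinergic mutants, 7.99 to 10.71 in cholinergic controls, 5.46 to 10.29 in dopaminergic mutants and 9.50 to 10.86 in dopaminergic controls. Of these, the choline acetyltransferase gene ChAT overlapped between the sorts. The acetylcholine transporter gene VAChT was at 9.71 or more in all cholinergic mutants and at 8.16 or less in all dopaminergic mutants. In controls VAChT overlapped, at 8.54 to 10.38 in cholinergic and 6.01 to 9.74 in dopaminergic pools. The remaining marker, ChT, averaged 11.11 and 9.36 in cholinergic mutants and controls and 9.50 and 11.25 in dopaminergic mutants and controls. The mean level of 5 glial markers ranged from 5.86 to 7.48 in cholinergic mutants and from 4.14 to 6.52 in cholinergic controls. In dopaminergic mutants it ranged from 4.68 to 5.61, against 4.61 to 5.70 in dopaminergic controls. The part of glial RNA in the results below was not tested. The parkin gene itself was not analysed here.

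Vps11 encodes a core subunit of HOPS. Its level was 3.15, 3.64 and 4.02 in the 3 cholinergic mutant pools, against 10.14, 10.53 and 7.67 in the 3 cholinergic control pools. It was 3.42, 3.42 and 3.23 in the dopaminergic mutant pools, against 4.94, 5.67 and 5.67 in the dopaminergic control pools. Every mutant pool lay below every control pool of its neuron type, with a gap of 3.64 between the highest mutant and the lowest control in cholinergic neurons and of 1.51 in dopaminergic neurons. Of the 12460 tested probe sets, 16 (0.128%) were lower in all mutants than in all controls in both neuron types, and Vps11 was one of them. The order of the group means was cholinergic control, dopaminergic control, cholinergic mutant and dopaminergic mutant, and the pools of the mutant groups overlapped. Vps11 reached its array's median only on the 3 cholinergic control arrays and entered the tests through that group, so a difference from that group is partly fixed by the filter. On the mutant arrays its level lay between percentiles 2.82 and 13.9 of all probe sets in cholinergic pools and between percentiles 1.36 and 4.73 in dopaminergic pools, at the lower end of the scale, so no fold change is given.

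In cholinergic neurons, Vps11 fell by 5.84 ± 0.68 (SE) on the log2 scale, with means of 3.61 ± 0.44 in mutants and 9.44 ± 1.55 in controls (SD, n = 3 each). This passed the threshold with a limma adjusted p of 0.0201, 1 of 6 probe sets called (0.0482%). Vps11 was named in the question with this difference already known, so its call is not independent evidence. In dopaminergic neurons the difference was -2.07 ± 0.68, with means of 3.36 ± 0.11 in mutants and 5.42 ± 0.42 in controls (SD, n = 3 each), and it did not pass (limma adjusted p = 0.905). Levels lower in all dopaminergic mutants than in all dopaminergic controls occurred in 361 probe sets (2.9%). No probe set was called there (0.0%), while 560 had an unadjusted limma p under 0.05 (4.49%), Vps11 among them with 0.0112. Without the third dopaminergic mutant array the dopaminergic difference was -2.003. The Vps11 difference was smaller in dopaminergic than in cholinergic neurons by 3.77 ± 0.96, which did not pass either (limma adjusted p = 0.744). Dopaminergic controls averaged 5.42, less than the cholinergic fall of 5.84, so a fall of that size had no room on the scale there. A smaller dopaminergic difference was thus largely fixed by the control levels, and whether the neuron types respond differently was not tested. Averaged over both neuron types, the mutant difference was -3.95 ± 0.48 with a limma adjusted p of 0.0532, the smallest p of all tested probe sets. The average contains the cholinergic difference that was known beforehand, so its rank is not independent evidence either.

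The dopaminergic and cholinergic comparisons have different control pools, and those controls differed in Vps11. Dopaminergic control pools were at 5.42 and cholinergic control pools at 9.44, a difference of -4.02 ± 0.68 without overlap (limma adjusted p = 0.200). In that comparison 440 probe sets were lower in all dopaminergic controls (3.53%). Dopaminergic mutants differed from cholinergic mutants by -0.25 ± 0.68, with a 95% interval from -1.75 to 1.25. No pool outside the cholinergic controls exceeded 5.67.

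The cholinergic call depended on single arrays. The limma adjusted p was 0.0909, 0.0688, 0.0647 and 0.0815 without cholinergic mutant 1, cholinergic mutant 2, cholinergic control 1 and cholinergic control 2, and 0.0542, 0.0540 and 0.0515 without dopaminergic mutant 2, dopaminergic mutant 3 and dopaminergic control 2. The difference itself stayed between -6.73 and -5.30 in all 12 such fits. The sample titles carry a code whose meaning is not given in the sources used here, and cholinergic controls 1 and 2 share a leading letter that no cholinergic mutant has. Within the 1 letter that holds both cholinergic genotypes, Vps11 was 3.64 and 4.02 in mutants and 7.67 in a control, and with the letter as a block the difference was -5.01 (limma adjusted p = 0.747). An antisense gene, asRNA:CR45164, overlaps Vps11 in the Release 6 annotation and has no named probe set, so its share in the signal was not tested.

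**Figure D1:**
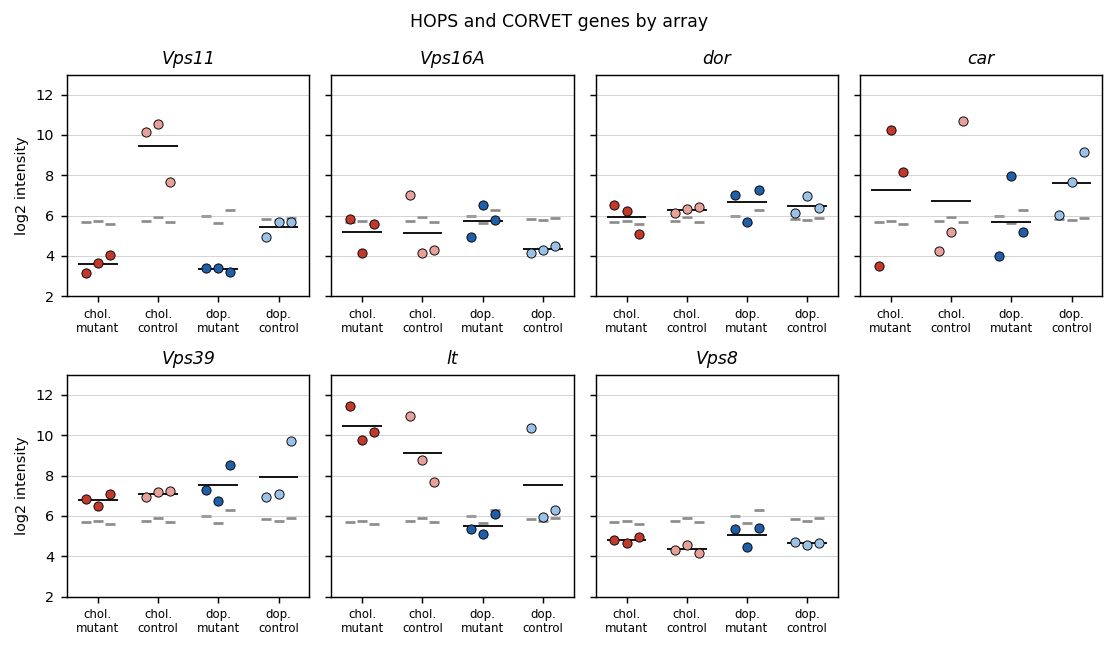
Log2 intensity of Vps11 and of its HOPS and CORVET partners on each of the 12 arrays (vertical axis), by group (horizontal axis), with a point per array, a black line at the group mean and a grey dash at that array's median over all probe sets. Vps11 lies below every control of its neuron type in all 6 mutants, while dor, car, Vps39 and lt overlap between mutants and controls in both neuron types.

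The partners of Vps11 did not pass the test in either neuron type. Of the 5 tested partners, 3 were higher and 2 lower in cholinergic mutants, with a median difference of 0.04, and 2 were higher and 3 lower in dopaminergic mutants, with a median of -0.41. Over all tested probe sets the medians were -0.17 and 0.18. Without the third dopaminergic mutant array, 1 partner was higher and 4 were lower in dopaminergic mutants, with a median of -0.92, against -0.02 over all tested probe sets, and none passed (limma adjusted p = 0.9998 for each). In cholinergic neurons the 95% intervals of all 5 partners lay above the Vps11 difference of -5.84, the lowest bound being -3.73 for car. Vps11 was named in the question with this fall known, and 2 of the 12460 tested probe sets, Vps11 included, had one that low. Intervals above that line were thus usual, in 26 of the 28 other tested genes, and say little about the partners. The SE of Vps11 was not counted in. In dopaminergic neurons only the intervals of Vps16A and dor lay above the Vps11 difference of -2.07, and those of Vps39, car and lt reached it, so a difference of that size could not be told from none for these 3 genes.

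Vps16A encodes another core subunit, which binds the SM protein Car. It was at 5.86, 4.12 and 5.59 in cholinergic mutants, against 7.01, 4.13 and 4.30 in cholinergic controls. The groups overlapped, with a difference of 0.04 ± 0.84 and an interval from -1.81 to 1.89. It was at 4.95, 6.52 and 5.77 in dopaminergic mutants, against 4.16, 4.29 and 4.51 in dopaminergic controls. All dopaminergic mutants were higher, as were 760 probe sets of all tested (6.1%), and the difference of 1.43 ± 0.84 did not pass (limma adjusted p = 0.935). It was 1.42 without the third dopaminergic mutant array.

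The eye colour gene dor, deep orange, encodes the fly Vps18, a core subunit with a RING domain. Its levels were 6.54, 6.21 and 5.08 in cholinergic mutants, against 6.13, 6.33 and 6.41 in cholinergic controls. In dopaminergic neurons they were 7.01, 5.70 and 7.25 in mutants, against 6.11, 6.98 and 6.37 in controls. It had the narrowest interval of the 5 partners in both neuron types, with differences of -0.35 (95% interval -1.49 to 0.79) and 0.17 (-0.97 to 1.31). The dopaminergic difference turned to -0.13 without the third dopaminergic mutant array. The probe set lies in a gene that overlaps Mur2B and CG3740 in the annotation.

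The gene car, carnation, encodes the fly Vps33A, the SM protein that HOPS uses to act on SNAREs. It was at 3.48, 10.27 and 8.14 in cholinergic mutants, against 4.26, 5.16 and 10.72 in cholinergic controls. It was at 3.98, 7.95 and 5.18 in dopaminergic mutants, against 6.04, 7.68 and 9.16 in dopaminergic controls. Each group spanned 3 or more log2 units, and the intervals ran from -3.73 to 4.90 in cholinergic and from -6.24 to 2.39 in dopaminergic neurons. The dopaminergic difference was -1.93 ± 1.96, and -1.66 without the third dopaminergic mutant array.

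Vps39 and lt encode the subunits that HOPS has and CORVET lacks. Vps39 was at 6.86, 6.47 and 7.10 in cholinergic mutants, against 6.93, 7.18 and 7.21 in cholinergic controls, a difference of -0.30 ± 0.77. It was at 7.28, 6.72 and 8.54 in dopaminergic mutants, against 6.93, 7.10 and 9.73 in dopaminergic controls, a difference of -0.41 ± 0.77, and of -0.92 without the third dopaminergic mutant array. Vps39 was at or above its array's median on all 12 arrays, and its groups overlapped in both comparisons.

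The gene lt, light, encodes the fly Vps41, which binds the lysosomal side. It was at 11.45, 9.78 and 10.17 in cholinergic mutants, against 10.93, 8.76 and 7.71 in cholinergic controls, a difference of 1.33 ± 1.20. In dopaminergic neurons it was at 5.35, 5.10 and 6.08 in mutants, against 10.37, 5.94 and 6.29 in controls, a difference of -2.03 ± 1.20, and of -2.31 without the third dopaminergic mutant array. Neither difference passed, and in the dopaminergic comparison 1 control pool, at 10.37, stood far above the other two, which lay close to the mutants. Its mutant pools were set against each other after these values were seen: lt was lower in all dopaminergic mutants than in all cholinergic mutants, by 4.96 ± 1.20 log2 units, with a limma adjusted p of 0.353. In that comparison 2 probe sets were called (0.0161%), and 570 were lower in all dopaminergic mutants (4.57%). With array weights lt passed (limma adjusted p = 0.0407) among 620 probe sets called, and it did not pass in the other 22 alternatives, of which leaving out dopaminergic mutant 2 called 112 probe sets.

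Vps8, the subunit that marks CORVET, was below its array's median on all 12 arrays. It was at 4.79, 4.68 and 4.94 in cholinergic mutants, against 4.31, 4.54 and 4.18 in cholinergic controls. It was at 5.36, 4.44 and 5.40 in dopaminergic mutants, against 4.69, 4.58 and 4.64 in dopaminergic controls. All cholinergic mutants were higher than all cholinergic controls, a pattern that 457 of the 12460 tested probe sets had (3.67%). No test was made because the gene did not meet the filter.

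The 6 HOPS genes were only weakly correlated over the arrays. The 15 pairwise Pearson correlations over the same 12 arrays ranged from -0.43 to 0.32 with a median of -0.08. Vps11 correlated with its partners at -0.08 to 0.24. The points share depth, amplification and group, and these values are a description.

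**Figure D2:**
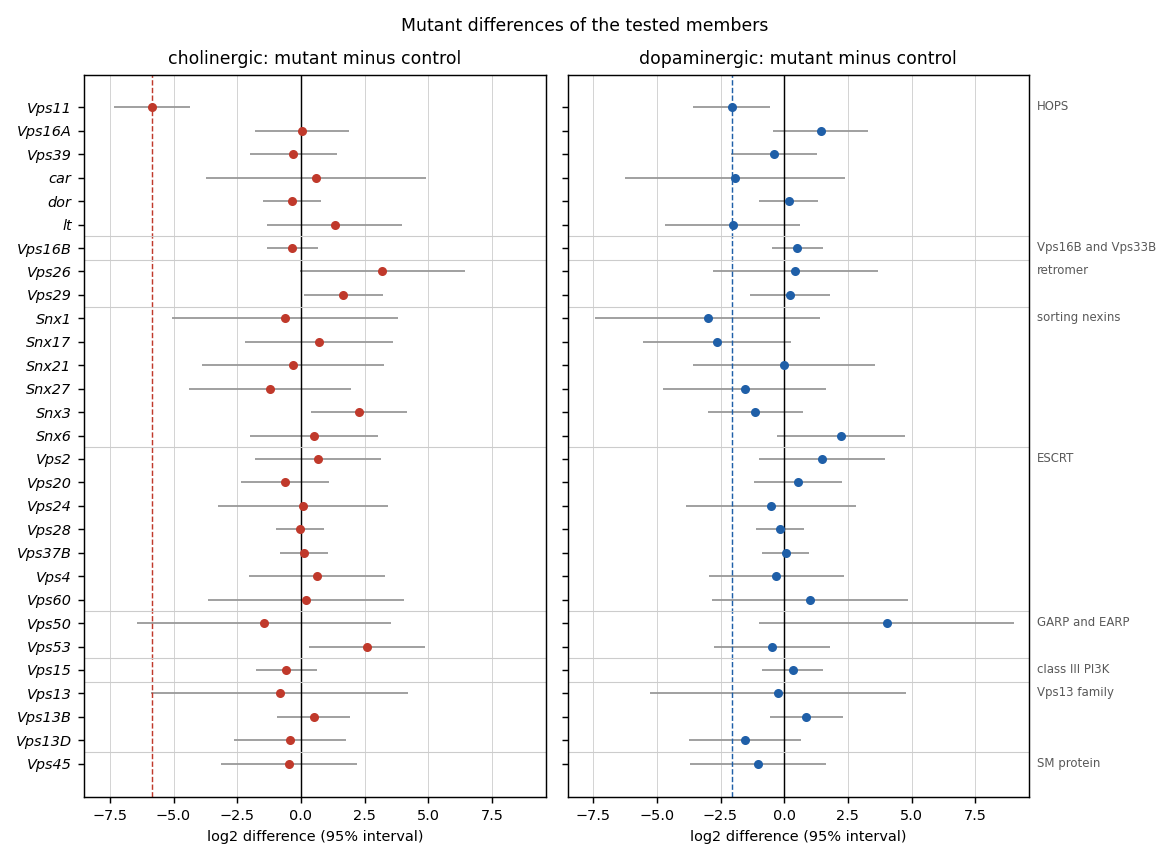
Log2 difference, mutant minus control (horizontal axis), of the 29 tested genes (rows, grouped by complex) in cholinergic (left) and dopaminergic neurons (right), with points for the estimate, bars for the 95% interval and a dashed line at the Vps11 difference. Vps11 stands at -5.84 and -2.07, while 26 of the 28 other intervals in cholinergic neurons and 12 of 28 in dopaminergic neurons lie wholly above its line. The line shows the estimate without its SE, and Vps11 was named with its cholinergic fall known.

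Retromer's core is made of Vps26, Vps29 and Vps35. Both of the tested core genes were higher in cholinergic mutants on average and neither passed the test. Vps26 was at 10.62, 3.60 and 9.47 in cholinergic mutants, against 3.65, 6.35 and 4.12 in cholinergic controls. The mutant group held both the highest levels and the lowest one, and the difference was 3.19 ± 1.47 (limma adjusted p = 0.939). In dopaminergic neurons Vps26 was at 4.05, 5.29 and 5.03 in mutants, against 3.88, 4.57 and 4.65 in controls, a difference of 0.43 ± 1.47, and of 0.30 without the third dopaminergic mutant array.

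Vps29, the small scaffold subunit that contacts Vps35, was at 5.36, 8.74 and 7.14 in cholinergic mutants, against 5.54, 5.38 and 5.33 in cholinergic controls. In 2 of the 3 cholinergic mutants it lay above all controls, and the difference of 1.66 ± 0.71 had an unadjusted limma p of 0.0386 and an adjusted p of 0.939. It was at 6.18, 5.91 and 6.88 in dopaminergic mutants, against 5.58, 6.73 and 5.97 in dopaminergic controls. That difference was 0.23 ± 0.71, and -0.05 without the third dopaminergic mutant array.

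Vps35, the largest retromer subunit, was at or above its array's median on 1 array. It was at 4.92, 3.69 and 4.62 in cholinergic mutants, against 2.96, 3.59 and 7.95 in cholinergic controls. It was at 3.17, 3.28 and 5.02 in dopaminergic mutants, against 2.91, 3.50 and 2.999 in dopaminergic controls. The groups overlapped in both neuron types, with no test because the gene did not meet the filter. Vps26, Vps29 and Vps35 each overlap another gene in the annotation, CG14817, capt and Swim.

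The 6 tested sorting nexins held no call in either comparison. In cholinergic mutants 3 were higher and 3 lower, with a median of 0.11. In dopaminergic mutants 2 were higher and 4 lower, with a median of -1.35. Snx3, which recruits retromer to cargo and is needed for recycling of the Wnt carrier Wntless in flies, was at 9.21, 8.52 and 7.63 in cholinergic mutants, against 6.62, 5.27 and 6.67 in cholinergic controls. All cholinergic mutants were higher, as were 457 of all tested probe sets (3.67%). The difference of 2.26 ± 0.85 had an unadjusted limma p of 0.0224 and an adjusted p of 0.939. In dopaminergic neurons Snx3 was at 6.05, 8.11 and 5.79 in mutants, against 7.12, 9.32 and 6.93 in controls, with overlapping groups and a difference of -1.13 ± 0.85. The difference between the effects, -3.40 ± 1.21, did not pass (limma adjusted p = 0.744).

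Snx6 and Snx1 carry BAR domains that bind curved membranes. Snx6 was at 4.75, 9.70 and 5.40 in dopaminergic mutants, against 4.28, 4.46 and 4.46 in dopaminergic controls. All dopaminergic mutants were higher, as were 760 of all tested probe sets (6.1%), and 1 array set the size of the difference of 2.22 ± 1.14. That difference was 2.82 without the third dopaminergic mutant array. Snx1 was at 4.72, 3.65 and 5.38 in dopaminergic mutants, against 9.63, 8.10 and 5.03 in dopaminergic controls, a difference of -3.01 ± 2.01, and of -3.41 without that array. In cholinergic neurons Snx1 spanned 3.42 to 11.10 in mutants and 4.05 to 10.45 in controls, so the spread within a genotype was larger than the differences.

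Snx17, which recycles surface receptors in mammalian cells, was at 5.04, 5.49 and 4.72 in dopaminergic mutants, against 4.88, 7.40 and 10.88 in dopaminergic controls. The difference of -2.64 ± 1.32 had the smallest unadjusted limma p among these genes in the dopaminergic comparison after Vps11, 0.0708, and an adjusted p of 0.935. It was -2.45 without the third dopaminergic mutant array. The groups overlapped, and without dopaminergic control 3 the control pools were 4.88 and 7.40. Snx27, which links cargo to retromer through a PDZ domain, was at 6.08, 8.52 and 8.28 in cholinergic mutants, against 7.72, 9.05 and 9.76 in cholinergic controls, a difference of -1.22 ± 1.45. Snx27 was the 1 gene with 2 probe sets, which correlated at 0.67 over the 12 arrays. The other probe set averaged 7.32 in cholinergic mutants and 7.38 in cholinergic controls, nearly the same level.

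**Figure D3:**
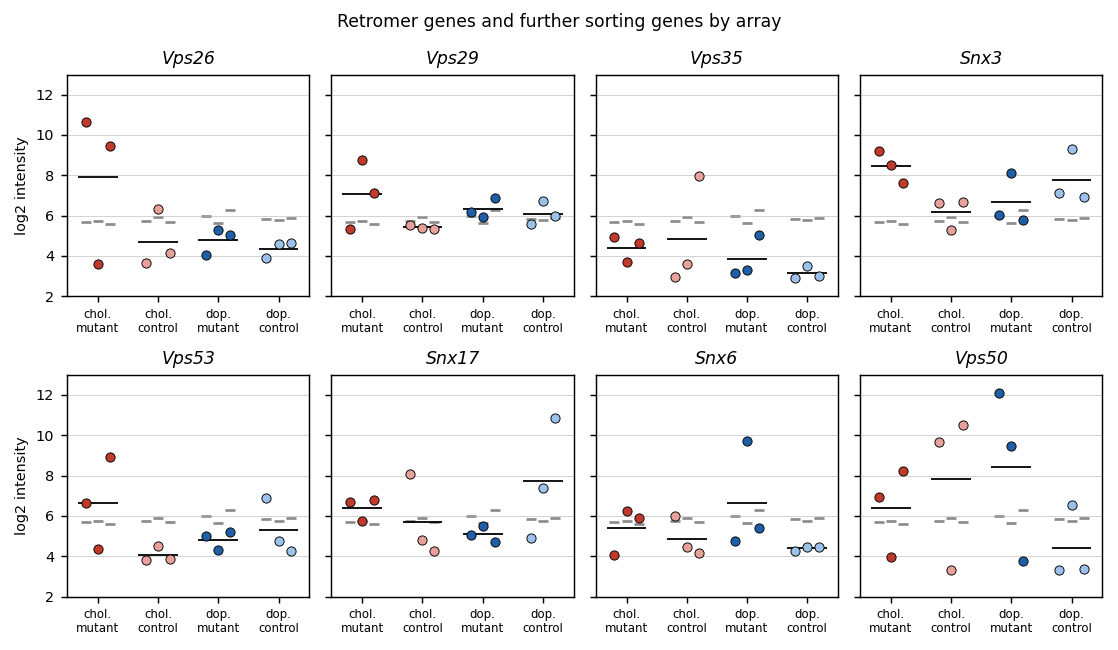
Log2 intensity (vertical axis) of the retromer core genes Vps26, Vps29 and Vps35 and of Snx3, Vps53, Snx17, Snx6 and Vps50 on each array, by group (horizontal axis), with a black line at the group mean and a grey dash at that array's median. Snx3 is higher in all 3 cholinergic mutants than in their controls, and Vps35, Snx6 and Snx17 each have a single pool far above their others.

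The ESCRT genes showed no shared direction. Of 7 tested, 5 were higher and 2 lower in cholinergic mutants (median 0.12), and 4 were higher and 3 lower in dopaminergic mutants (median 0.06). No ESCRT gene passed in either comparison. In cholinergic neurons all 7 intervals lay above the Vps11 difference, as 26 of the 28 intervals other than that of Vps11 did. The ESCRT-I subunits Vps28 and Vps37B had the tightest values, with differences of -0.05 ± 0.43 and 0.12 ± 0.42 in cholinergic neurons and of -0.16 ± 0.43 and 0.05 ± 0.42 in dopaminergic neurons. Vps20, an ESCRT-III subunit, was at 7.70, 8.51 and 8.45 in cholinergic mutants, against 7.99, 10.15 and 8.38 in cholinergic controls, a difference of -0.62 ± 0.78. Vps20 and the ATPase gene Vps4, whose product takes ESCRT-III apart, were at or above their array's median on all 12 arrays.

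Vps4 was at 10.41, 6.87 and 8.91 in cholinergic mutants, against 6.55, 7.19 and 10.57 in cholinergic controls, a difference of 0.63 ± 1.21, and its dopaminergic difference was -0.32 ± 1.21. Vps2, an ESCRT-III subunit that acts late in fission, was at 7.72, 8.17 and 6.13 in dopaminergic mutants, against 7.11, 5.01 and 5.44 in dopaminergic controls. The groups overlapped in both genes, and the Vps2 difference of 1.49 ± 1.13 did not pass (limma adjusted p = 0.935). In Vps2 the overlap came from the third dopaminergic mutant array, at 6.13. The levels of 7.72 and 8.17 on the other dopaminergic mutant arrays lay above all dopaminergic controls. How many probe sets share that pattern was not counted.

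Vps24 and Vps60, which also belong to ESCRT-III, varied more between cholinergic pools of a genotype than between genotypes. Vps24 lay between 5.55 and 10.36 in cholinergic mutants and between 6.58 and 10.01 in cholinergic controls. Vps60 lay between 4.34 and 10.32 in cholinergic mutants and between 5.78 and 9.22 in cholinergic controls. Their differences were 0.08 ± 1.52 and 0.20 ± 1.75. Of the untested ESCRT-II subunits, Vps25 was high on 1 dopaminergic mutant array (8.93) and Vps36 on 1 dopaminergic control array (10.69).

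GARP and EARP, tethers that share Vps51, Vps52 and Vps53, return vesicles to the Golgi and to recycling endosomes. Vps53 was at 6.63, 4.38 and 8.91 in cholinergic mutants, against 3.79, 4.48 and 3.85 in cholinergic controls. In 2 of the 3 mutants it was above all controls, with a difference of 2.59 ± 1.04, an unadjusted limma p of 0.0293 and an adjusted p of 0.939. Vps50, the subunit that marks EARP, was at 12.08, 9.48 and 3.76 in dopaminergic mutants, against 3.34, 6.56 and 3.38 in dopaminergic controls. Its difference was 4.02 ± 2.27, and 6.35 without the third dopaminergic mutant array, both with a limma adjusted p over the threshold (0.935 with all arrays). In cholinergic neurons Vps50 was at 6.92, 3.96 and 8.24 in mutants, against 9.67, 3.30 and 10.52 in controls, so high and low pools occurred in both genotypes.

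Vps13, Vps13B and Vps13D encode large lipid transfer proteins, and Vps13D takes part in clearing mitochondria in flies. None of the 3 passed in either comparison. Vps13D was at 5.39, 4.69 and 6.32 in dopaminergic mutants, against 5.33, 9.75 and 5.94 in dopaminergic controls, a difference of -1.54 ± 1.00 with 1 control pool far above the rest, and of -1.97 without the third dopaminergic mutant array. Vps13B was at 5.55, 7.31 and 5.45 in cholinergic mutants, against 5.45, 5.49 and 5.86 in cholinergic controls, a difference of 0.51 ± 0.65. It was at 6.03, 5.08 and 7.55 in dopaminergic mutants, against 5.27, 5.23 and 5.56 in dopaminergic controls, and its difference of 0.86 ± 0.65 was 0.20 without the third dopaminergic mutant array. Vps13 spanned 4.76 to 11.49 in cholinergic mutants and 5.95 to 11.65 in cholinergic controls, and its interval of -5.87 to 4.19 reached the Vps11 difference.

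Vps15, the regulatory subunit of the class III phosphatidylinositol 3-kinase, was at 6.16, 6.40 and 5.55 in cholinergic mutants, against 7.56, 6.23 and 6.06 in cholinergic controls, a difference of -0.58 ± 0.54. Vps45, an SM protein for early endosome fusion, was lower in all cholinergic mutants (5.65, 5.65 and 5.10) than in all cholinergic controls (5.69, 6.27 and 5.88). Its gap between the groups was small and its limma adjusted p was 0.950. Groups that did not overlap in this direction occurred in 1029 probe sets (8.26%), and in 2 of the 29 tested genes. Vps16B, whose product forms a HOPS-like pair with that of Vps33B, differed by -0.33 ± 0.45 in cholinergic and by 0.51 ± 0.45 in dopaminergic neurons.

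Counted over the 29 tested genes, 15 were higher and 14 lower in cholinergic mutants, with a median difference of 0.04, against -0.17 over all tested probe sets. In dopaminergic mutants 14 were higher and 15 lower, with a median of -0.16, against 0.18 over all tested probe sets. Without the third dopaminergic mutant array 11 were higher and 18 lower, with a median of -0.13, against -0.02 over all tested probe sets. The cholinergic comparison called 1 of the 29, Vps11, and the dopaminergic one none. An unadjusted limma p under 0.05 was reached by 4 of the 29 in cholinergic neurons (13.8%: Vps11, Snx3, Vps53 and Vps29), where 4.57% of probe sets did so. In dopaminergic neurons 1 gene reached it (3.45%: Vps11), against 4.49% of probe sets. Vps11, which was named in the question beforehand, is in both counts. With no filter on low levels, all 37 genes were tested. Vps11 was then again the 1 of them called in the cholinergic comparison, where 6 of 18769 probe sets were called. The dopaminergic comparison called 1 of 18769 probe sets and 0 of these genes.

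Most of these genes varied widely over the 12 pools. The range over the arrays, which also holds differences between groups, was at least 4 log2 units in 23 of the 37 genes. It was so in 19 of the 29 tested genes (65.5%), against 41.8% of all tested probe sets. The median standard deviation within a group was 1.55 for the tested genes and 0.98 for all tested probe sets. For Vps11 the range was 7.38 and the standard deviation within a group 0.84. At a level of 8 or more, 25 genes were seen on at least 1 array and 0 on all 12. There were 8 genes at this level on exactly 1 array, and in 6 of them that array stood at least 2 log2 units above the next, among them Vps45 at 11.71, Vps36 at 10.69 and Vps51 at 9.64 in single dopaminergic control pools. The number of genes at 8 or more was 8 to 11 in cholinergic mutants, 6 to 10 in cholinergic controls, 2 to 8 in dopaminergic mutants and 7 to 9 in dopaminergic controls, and the lowest number came from the third dopaminergic mutant array. The median width of the 95% intervals of the 28 genes other than Vps11 was 4.998 log2 units in cholinergic neurons. In a gene of that width the unadjusted interval leaves out 0 only when the difference exceeds 2.50 log2 units, and a call needs a larger one.

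**Figure D4:**
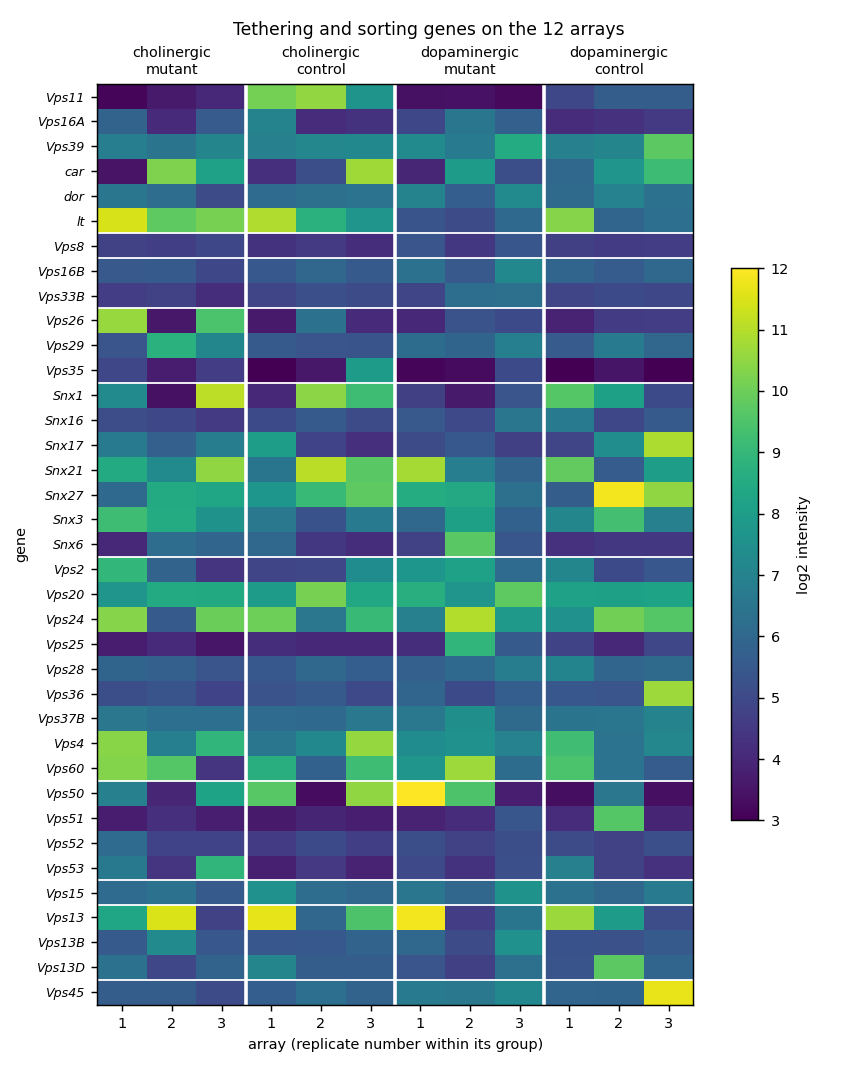
Log2 intensity (colour) of all 37 genes (rows, grouped by complex) on the 12 arrays (columns, by group). Vps11 is low on all 6 mutant arrays and high on the 3 cholinergic control arrays, while 8 genes are at 8 or more on a single array.

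Other genes of the same pathways were read from 5 lists. No gene in any of them passed the test in either neuron type. Of the ESCRT genes without a Vps symbol, 4 of 9 tested were higher and 5 lower in cholinergic mutants, and 3 were higher and 6 lower in dopaminergic mutants. The ESCRT-I gene Mvb12 averaged 7.55 in cholinergic mutants and 11.16 in cholinergic controls without overlap (-3.61 ± 1.62, limma adjusted p = 0.939). The ESCRT-III gene CHMP2B averaged 8.04 in dopaminergic mutants and 6.47 in dopaminergic controls, also without overlap (1.57 ± 0.43, limma adjusted p = 0.782). Of all tested probe sets, 1029 (8.26%) were lower in all cholinergic mutants and 760 (6.1%) higher in all dopaminergic mutants.

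Of the endosomal and lysosomal fusion genes, 6 of 11 tested were higher and 5 lower in cholinergic mutants, and 9 were higher and 2 lower in dopaminergic mutants. HOPS acts with SNAREs that include Snap29 and Vamp7. Snap29 averaged 5.47 in cholinergic mutants and 6.80 in cholinergic controls (-1.33 ± 0.43, all mutants lower, limma adjusted p = 0.835). Vamp7 averaged 7.97 in cholinergic mutants and 5.35 in cholinergic controls (2.62 ± 0.94, all mutants higher, limma adjusted p = 0.939). These SNARE genes lay in opposite directions. Of all tested probe sets, 1029 (8.26%) were lower and 457 (3.67%) higher in all cholinergic mutants.

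Of the eye colour genes of AP-3 and BLOC, which send cargo to lysosome-related organelles, 2 of 7 tested were higher and 5 lower in cholinergic mutants, and 3 were higher and 4 lower in dopaminergic mutants. The AP-3 subunit gene g, garnet, averaged 5.74 in dopaminergic mutants and 8.54 in dopaminergic controls (-2.79 ± 0.98, all mutants lower, limma adjusted p = 0.935). All dopaminergic mutants were lower in 361 of all tested probe sets (2.9%). The WASH complex had 2 higher and 2 lower of 4 tested in each neuron type. Of 10 tested genes for lysosomal enzymes and membrane proteins, 5 were higher and 5 lower in cholinergic mutants, and 6 were higher and 4 lower in dopaminergic mutants. Lamp1, a lysosomal membrane glycoprotein gene, averaged 7.38 in dopaminergic mutants and 11.51 in dopaminergic controls, with overlapping groups (-4.14 ± 1.48, limma adjusted p = 0.935).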

How the data were processed

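Values were deposited as log2 intensities, 1 per probe set and array. How the authors corrected, normalized and summarised the probes is not given in the sources used here. Per the labels' protocols, cDNA of the sorted neurons was made and amplified with Ovation One-Direct reagents and labelled with the Encore Biotin module, 1 array per pool. Of 18952 probe sets, 183 controls were left out. The platform annotation gave 1 gene symbol to 13647, several to 402 and none to 4720, and names were checked against RefSeq's Release 6 gene table (37 of 37 genes matched by ID). Values were used without further scaling.

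Probe sets at or above their array's median on at least 3 arrays (12460) were fitted with limma 3.58.1 in R 4.3.3 (lmFit, then eBayes with a trend, 2-sided), using all 12 arrays and a coefficient for each group, and p-values were adjusted by Benjamini and Hochberg within each of 5 planned comparisons. A comparison of the mutant groups was added after the values of lt were seen. Counts, summaries and figures were made with Python 3.11.15, pandas 2.3.3 and matplotlib 3.10.9. The alternatives were 11 other settings and the 12 fits that leave out 1 array.

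The genes and lists were chosen with earlier results of these data known. Values on every array are given for Vps11, its HOPS and CORVET partners, the retromer core and, per mutant comparison, the up to 6 other members with the smallest p. Values outside this rule were chosen after they were seen. They include the values of Vps45, Vps2 and Vps4, of Snx3 in dopaminergic neurons and of Vps50 in cholinergic neurons. Single arrays of Vps25, Vps36 and Vps51, and ranges for Snx1, Vps24, Vps60 and Vps13, are also among them. Markers were listed for neurons, dopaminergic and cholinergic neurons, glia, hemocytes, fat body, muscle and photoreceptors, and none of their tested genes passed in either mutant comparison. The number of arrays limits precision, since log2 values carry no counts.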

Additional observations from a re-analysis of the deposited data

How the results depend on the processing

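No paired analysis was possible because the labels give no replicate numbers, only title codes whose meaning is not given. A fit with the codes' leading letter as a block stands in its place. In cholinergic neurons the Vps11 difference passed in 13 of 23 alternatives (limma adjusted p from 0.00228 to 0.747) and kept its sign in all. It no longer passed at -5.84 with a filter at the 65th percentile (limma adjusted p = 0.0699) or with only the arrays compared (0.271), or at -5.01 with the title letter as a block (0.747). In these 3 settings no member was called (0, against 1), the probe sets called numbered 0, 3 and 0, against 6, and with no trend 2. The members' median became -0.30 with the 65th percentile filter and -0.26 with the letter block in cholinergic neurons. In dopaminergic neurons it was -0.41 with that filter and -0.33 with centred arrays (-0.16 as reported), and centring moved the median of all probe sets to 0.02, against 0.18. In dopaminergic neurons Vps11 passed in 0 of 23 (0.0723 to 1.00), and probe sets called numbered 1 with no filter and 524 with array weights, which gave dopaminergic mutant 1 a weight of 4.56. The averaged Vps11 effect passed in 9 of 23. It was -3.98 with centred arrays (0.0372), -3.95 with no filter (0.0310), no trend (0.0406), array weights (0.0142), averaged probe sets of a gene (0.0400) and a threshold of 0.1 (0.0532). Vps11 was then the 1 member called, among 2 probe sets in these settings and 3 with array weights. Between controls, probe sets called numbered 1 with no filter, 6 with array weights and 1 with only the arrays compared.

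Vps16A, Vps26, Vps13B and Snx6 were not tested with the 65th percentile filter. Signs turned, with no call, for Vps16A (-0.10 with array weights, -0.033 with the letter block), car (-0.49) and Snx27 (0.20) with the letter block in cholinergic neurons, and for Vps39 (0.33, quantile normalization), Vps26 (-0.16, array weights), dor (-0.13) and Vps29 (-0.62, both letter block) in dopaminergic neurons.

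Leaving out 1 array gave ranges of -6.73 to -5.30 for Vps11 in cholinergic neurons, -4.40 to -3.68 for its averaged effect and -4.91 to -3.48 between controls, which passed without cholinergic control 3 (limma adjusted p = 0.0298). The averaged effect passed without cholinergic control 3 (0.00292), cholinergic mutant 3 (0.0421) or dopaminergic mutant 2 (0.0291). Signs turned on leaving out 1 array, with ranges in cholinergic neurons of -0.10 to 0.83 for Vps13B, -0.47 to 0.97 for Vps16A, -1.04 to 0.038 for Vps20, -0.90 to 2.59 for car and -0.65 to 0.082 for dor. In dopaminergic neurons these were -0.049 to 0.55 for Vps29, -0.92 to 0.50 for Vps39 and -0.13 to 0.64 for dor. With no turn of sign, values moved over 1.5 times in cholinergic neurons for Vps26 (1.83 to 5.34), Vps53 (1.46 to 3.73), Vps29 (0.83 to 2.52), lt (0.62 to 2.23), Snx27 (-1.78 to -0.45), Vps15 (-0.86 to -0.11) and Vps39 (-0.44 to -0.13), and in dopaminergic neurons for Snx1 (-4.28 to -1.99), Snx17 (-4.06 to -1.06), Snx6 (0.68 to 3.15), Vps13B (0.20 to 1.43), Vps13D (-2.38 to -0.17), Vps26 (0.17 to 0.80), Vps50 (2.20 to 6.35), car (-3.05 to -1.06) and lt (-2.82 to -0.61). The Vps11 difference between mutant groups was -0.48 to -0.04. Probe sets called numbered 0 to 14 in cholinergic neurons (14 without cholinergic mutant 3), 0 to 74 in dopaminergic neurons (74 without dopaminergic mutant 2), 0 to 3 for the difference of effects, 0 to 11 for the averaged effect (11 without dopaminergic mutant 2) and 0 to 5 between controls. Members called numbered 0 to 1 in cholinergic neurons, in the averaged effect and between controls. The members' median was -0.32 to 0.10 in cholinergic and -0.17 to 0.18 in dopaminergic neurons. The cause of these changes was not tested. With 3 arrays per group and levels that jump between pools, intensity near the arrays' lower end limits what could be measured.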
